A study of Mus musculus with 36 samples.

Results

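The effect of a 60% high-fat diet (60% HFD) was examined in the epididymal white adipose tissue (eWAT) of ligatured CCL19-KI mice, in which the chemokine gene *Ccl19* had been knocked into the *Adipoq* locus. The comparison was taken as the 3 ligatured CCL19-KI mice fed the 60% HFD against the 3 ligatured CCL19-KI mice fed a normal diet (ND), which made 6 of the 36 mice of the series. In the whole series CCL19-KI and wild-type (WT) C57BL/6 mice were given ND, a 40% HFD or a 60% HFD, each with or without a ligature, in 12 groups of 3 mice. All mice were male. Both groups compared were homozygous for the knock-in and kept the *Adipoq* gene itself, were put on their diets at 6 weeks of age, and had silk ligatures tied around upper molars at 14 weeks, after 8 weeks of feeding, to induce experimental periodontitis (LIP). The eWAT was collected at 16 weeks, after 10 weeks of feeding and 2 weeks of LIP. The knock-in mice were bred as a line of their own, and the WT mice were bred separately, so that the WT mice were not littermates. The question put to these libraries was how the diet changed transcription in fat tissue that makes CCL19 while periodontitis is present.

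White adipocytes store fatty acids as triglyceride in a single lipid droplet and release them by lipolysis. They also secrete hormones such as leptin, whose level follows the fat mass. In diet-induced obesity adipocytes enlarge, the matrix around them is remodelled, and macrophages gather around dying adipocytes, where they take up lipid and digest it in lysosomes. CCL19 is a ligand of CCR7, a receptor on dendritic cells and lymphocytes, and the *Adipoq* promoter confines the transgene largely to adipocytes.

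The libraries held 13025945 to 17411941 reads assigned to genes in the ND mice and 13461511 to 21581595 in the 60% HFD mice. Values are given as normalized CPM, the edgeR-normalized number of reads per gene scaled to a common library size, in the order mouse 1, 2 and 3. *Ccl19* lay between 11.8 and 28.8 in the 6 mice and between 0.507 and 2.79 in ligatured WT mice, while *Gm2564*, a predicted gene, lay between 28.2 and 64.1 in the 6 mice and was listed at 0 in every ligatured WT mouse. All 6 libraries therefore carried the knock-in signal that their labels give. The diet did not move it detectably, since *Ccl19* itself read 28.8, 14.9 and 21.1 in the ND mice and 22.7, 11.8 and 27.1 in the 60% HFD mice (log2 fold change -0.10 ± 0.41 SE, adjusted p = 0.884). *Adipoq* and the other adipocyte markers were abundant in all 6 libraries, and *Adipoq* ranged from 470 to 1178.

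Markers of tissues other than fat differed between the groups and are given here because many results are also given without the mice that carried them. How liver and epididymal transcripts came into libraries of a fat pad was not tested. The mean log2 level of 18 hepatocyte markers was 7.75, 0.61 and 0.72 in the ND mice and 9.50, 9.26 and 6.35 in the 60% HFD mice. *Alb*, the liver's albumin gene, read 4333, 7.67 and 9.31 against 12273, 11118 and 1337, so that ND mice 2 and 3 stood apart from the other 4 libraries. Smooth muscle markers had mean levels of 8.35, 7.80 and 3.93 in the ND mice and of 3.49 to 4.22 in the 60% HFD mice, and here ND mice 1 and 2 stood apart. The same 2 mice held epididymal transcripts: *Crisp1*, a secretory protein gene of the epididymis, read 2208, 932 and 9.62 in ND mice and 1.42, 0.0555 and 0.0745 in 60% HFD mice. Summed over its markers, the epididymis list ran from 18.9 to 2747 in the ND mice and from 1.27 to 2.45 in the 60% HFD mice, where 5 of its 17 genes were at 0 in all 3 mice. The neuronal list summed to 50.8 to 193 against 7.52 to 19.2. The adipocyte list itself had similar mean levels, 9.62, 9.15 and 9.85 against 9.98, 9.14 and 10.20. In bulk tissue, fewer cells of a type and less RNA per cell cannot be told apart.

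**Figure D1:**
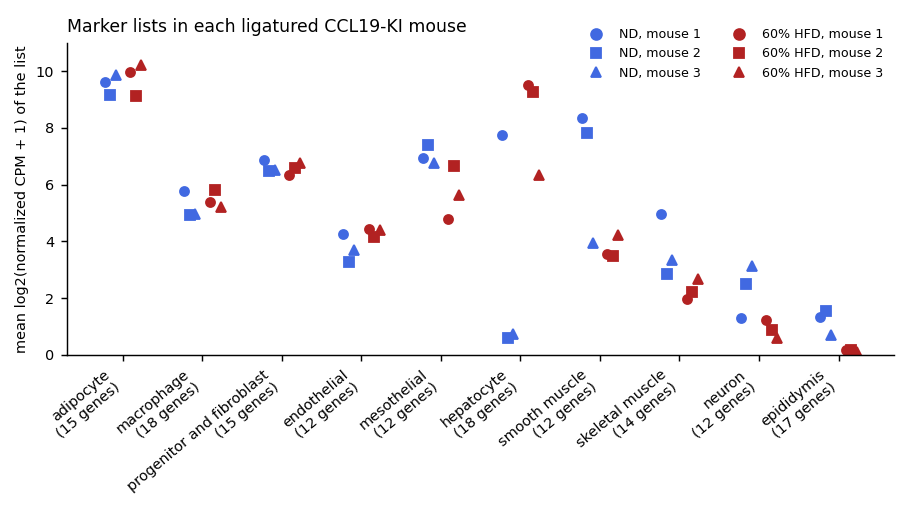
Mean log2(normalized CPM + 1) over the markers of each cell type or tissue (vertical axis), with 1 point for each ligatured CCL19-KI mouse, the colour giving the diet and the shape the mouse. Hepatocyte markers are low in ND mice 2 and 3 and smooth muscle markers are high in ND mice 1 and 2, while the adipocyte markers overlap between the diets.

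Of 16653 genes tested with limma, 2131 rose (12.8%) and 1580 fell (9.49%) on the 60% HFD at an adjusted p under 0.05. The criteria of the study's methods ask for an unadjusted p of 0.05 or less and a change of 1.5-fold upwards or to 0.67 or less downwards. They called 4194 genes (25.2%), 2200 of them higher. The median log2 fold change of all tested genes was 0.003. All 3 60% HFD values lay above the ND values in 3367 genes and below them in 2955, so that 38% of all tested genes did not overlap. List members named below were mostly chosen for a low p, which favours groups without overlap. With quantile normalization the split by adjusted p turned to 1447 higher and 1912 lower. Leaving out ND mouse 2 left 1460 calls (930 higher), leaving out 60% HFD mouse 1 left 1639 (1059 higher) and leaving out ND mouse 3 left 2407 (1328 higher), in place of 3711. List counts below stand beside 12.8% higher and 9.49% lower in the main fit. Those of the other fits stand beside the totals of all genes in the same fit, so a smaller list count there is in part a general loss of calls. With the hepatocyte marker level as a covariate 1400 genes were called, 787 of them higher. With the epididymis level, which did not overlap between the diets in the 6 mice, 564 genes were called, 372 of them higher. Without ND mice 1 and 2 1281 were called, and 712 without ND mice 2 and 3. In the main fit the p-values rest on the spread within groups of 3 mice, estimated over all 18 ligatured mice. That spread was not taken from the 6 mice compared alone, and a fit of only these 6 mice called 1801 of 15536 genes. For a single gene the exact two-sided permutation test of 3 against 3 mice cannot go below 0.1.

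Among the 10 largest rises of genes whose groups did not overlap, *Slc5a7*, *Ubd* and *Tph2* were close to silent on ND. *Slc5a7*, the high-affinity choline transporter, read 0.212, 0.43 and 0.551 in the ND mice and 131, 110.3 and 137 in the 60% HFD mice (log2 fold change 6.51 ± 0.56, adjusted p = 1.79e-05). *Ubd*, which encodes the ubiquitin-like modifier FAT10, read 1.06, 0.553 and 0.858 against 138, 116 and 125 (6.14 ± 0.55, adjusted p = 1.84e-05). *Tph2*, a tryptophan hydroxylase of serotonin synthesis, read 0.159, 0.184 and 0.858 against 86.8, 106 and 76.7 (6.04 ± 0.58, adjusted p = 2.93e-05). In each of these genes the 3 mice on the 60% HFD agreed closely and lay far above every ND mouse. *Lctl*, a lactase-like glycosidase of the klotho family, rose from 4.55, 2.95 and 6.8 to 216, 194 and 145 (5.05 ± 0.31, adjusted p = 1.20e-06). *Fgf13*, an intracellular fibroblast growth factor homologue, rose from 2.12, 4.24 and 5.09 to 107, 59.5 and 110.5 (4.28 ± 0.44, adjusted p = 5.34e-05). Both were expressed on ND. Groups without overlap were required of the 10 largest rises and falls, so that trait was fixed by the choice.

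*Itgad*, the alpha chain of a leukocyte integrin, read 0, 0.123 and 0.0613 in ND mice, which is at most a few reads, and 19.5, 16.9 and 15.7 in 60% HFD mice (adjusted p = 0.000109). *Gpr50*, a relative of the melatonin receptors, read 0, 0.184 and 0 against 37.0, 42.9 and 4.32 (adjusted p = 0.00112), with 60% HFD mouse 3 well below the other 2. No fold is given for these because 3 reads, the limit that a count of 0 allows, correspond to 0.159 to 0.184 in the ND libraries. The calls of *Slc5a7*, *Ubd*, *Tph2*, *Lctl*, *Fgf13*, *Itgad* and *Gpr50* held when any of the 6 mice was left out and with the hepatocyte, smooth muscle or epididymis level as a covariate. The other 3 of the 10 largest rises, *Bhmt*, *Apoa4* and *Cyp2b9*, are genes of the liver. *Bhmt*, betaine-homocysteine methyltransferase, read 89.2, 0.184 and 0.0613 against 1099, 1320.2 and 139 and was near 0 in ND mice 2 and 3, where the hepatocyte markers were low too (adjusted p = 0.0125, 0.0676 without ND mouse 2, 0.0528 without ND mouse 3, 0.0538 without 60% HFD mouse 1 and 0.529 without ND mice 2 and 3). With the hepatocyte level as a covariate *Bhmt* was still called (log2 fold change 1.83, adjusted p = 0.0303), and with the epididymis level it was not (7.12, adjusted p = 0.15). *Apoa4*, an apolipoprotein gene, read 7.78, 0.0614 and 0.0613 against 124, 159 and 8.57 (adjusted p = 0.0456), and its call was lost without ND mouse 2 (0.151), ND mouse 3 (0.133), 60% HFD mouse 1 (0.149) or 60% HFD mouse 2 (0.135). *Cyp2b9*, a cytochrome P450 gene, read 0.318, 0 and 0 against 41.3, 88.3 and 4.17 (adjusted p = 0.0209) and lost its call without the same mice (0.0712, 0.0549, 0.0788 and 0.077 in that order). With the hepatocyte level as a covariate its log2 fold change was 2.38 (adjusted p = 0.301). In unligatured knock-in ND mice 2 and 3, *Alb* read 11700 and 13696, *Bhmt* 4709 and 3069 and *Apoa4* 302 and 436. *Cyp2b9* read 0 and 0.531 there, and whether its rise came with the liver transcripts was not tested.

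**Figure D2:**
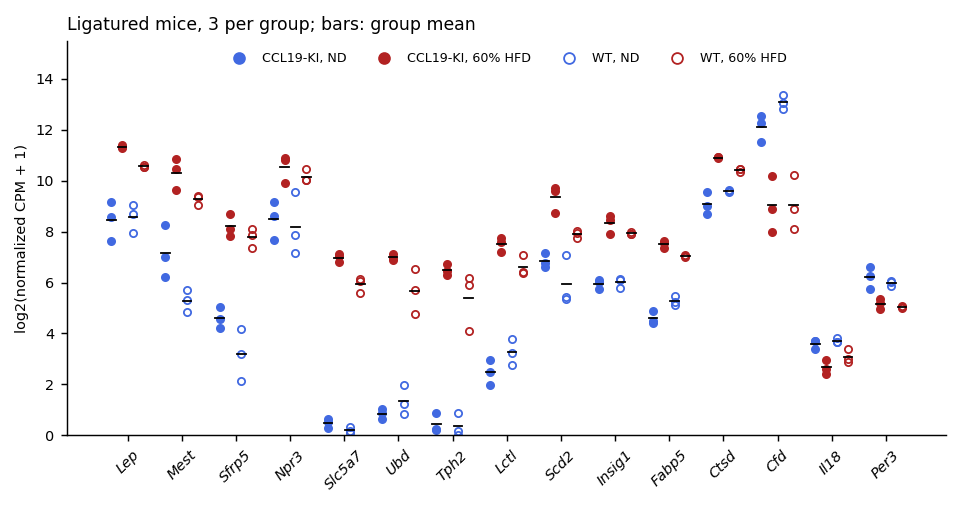
Log2(normalized CPM + 1) of 15 genes named in the text in each ligatured mouse, with 3 mice per group; blue is ND, red is the 60% HFD, filled points are CCL19-KI, open points are WT and bars are group means. In the knock-in the diets do not overlap for any of the 15 genes, and *Slc5a7*, *Ubd* and *Tph2* sit close to 0 on ND. *Slc5a7*, *Ubd*, *Tph2* and *Lctl* were picked by a rule that required groups without overlap. Most of the others were named as list members with a low p, which favours groups without overlap too. Of all tested genes 38% did not overlap.

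Among 10 adipokine genes 2 rose and 1 fell, beside 12.8% and 9.49% of all tested genes. The median log2 fold change of 0.62 turned to -0.04 with the epididymis level as a covariate, where none rose and 1 fell. *Lep*, which encodes the satiety hormone leptin, read 195, 379 and 569 on ND and 2547, 2728 and 2485 on the 60% HFD (2.89 ± 0.46, adjusted p = 0.00089). The 3 60% HFD mice lay close together, whereas the ND mice spread widely from mouse 1 to mouse 3, and the groups were far apart. *Cfd*, which encodes the serine protease adipsin of the alternative complement pathway, went the other way, from 4954, 2903 and 6043 to 475, 254 and 1176 (-3.08 ± 0.61, adjusted p = 0.00386). *Rbp4*, the retinol carrier made by liver and fat, read 375, 171 and 222 against 891, 698 and 502 (1.48 ± 0.44, adjusted p = 0.0281), and its adjusted p was 0.523 with the hepatocyte level as a covariate. It also lost its call without ND mouse 2 (0.124), ND mouse 3 (0.0765), 60% HFD mouse 1 (0.112) or 60% HFD mouse 2 (0.0628). *Adipoq*, the adiponectin gene, read 805, 470.1 and 759 against 929, 469.6 and 1178 and the groups overlapped (adjusted p = 0.6).

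Of 10 genes that mark expansion of the fat cell, 6 rose and none fell (median log2 fold change 1.14). *Sfrp5*, a secreted inhibitor of Wnt signalling made by adipocytes, rose from 17.5, 22.5 and 32.0 to 414, 225 and 276 (3.61 ± 0.44, adjusted p = 0.000174). *Mest*, an imprinted gene whose level is known to follow adipocyte enlargement, rose from 73.7, 129 and 306 to 1403, 798 and 1829 (3.14 ± 0.51, adjusted p = 0.00112). In both genes every 60% HFD mouse lay above every ND mouse. *Cavin1*, a coat protein of caveolae, rose from 713, 744 and 814 to 1692, 1356 and 2001 (1.14 ± 0.24, adjusted p = 0.00592). *Npr3*, the clearance receptor for natriuretic peptides, read 203, 395 and 579 against 1799, 957 and 1901 (2.04 ± 0.51, adjusted p = 0.0132, but 0.0558 without 60% HFD mouse 1). Without 60% HFD mouse 1, 3 of the 10 were called, beside 1059 higher of all 16568 genes tested in that fit. Without ND mice 1 and 2 the median was 1.19.

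Of 16 genes of *de novo* lipogenesis, which builds fatty acids from acetyl-CoA, 6 rose and none fell (median 1.07). *Acss2*, which activates acetate to acetyl-CoA, rose from 35.7, 33.3 and 40.3 to 181, 116 and 157 (2.01 ± 0.26, adjusted p = 0.000256). *Me1*, the malic enzyme that supplies NADPH, rose from 164, 158 and 197 to 702, 487 and 829.8 (1.93 ± 0.25, adjusted p = 0.000264). *Scd2*, a stearoyl-CoA desaturase, rose from 107, 144 and 96.6 to 849.6, 430.2 and 764 (2.51 ± 0.42, adjusted p = 0.0012). For these enzymes the diets did not overlap and the calls held without any 1 mouse. *Slc25a1*, the mitochondrial citrate carrier, rose by a log2 fold change of 1.46 ± 0.22 (adjusted p = 0.000582). The count of the list was 4 without ND mouse 2, without ND mouse 3 or without 60% HFD mouse 1.

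Of 16 genes of fatty acid uptake and triglyceride synthesis, 6 rose (median 0.60). *Mogat2*, a monoacylglycerol acyltransferase, was low on ND at 0.371, 0.921 and 0.49 and read 6.57, 10.3 and 8.87 on the 60% HFD (2.58 ± 0.27, adjusted p = 6.01e-05). *Vldlr*, the receptor for triglyceride-rich lipoproteins, rose from 71.7, 80.9 and 104 to 192, 170.4 and 326 (1.37 ± 0.25, adjusted p = 0.00205). *Cd36*, the fatty acid translocase, rose from 1629, 1226 and 1858 to 4013, 2765 and 4774 (1.28 ± 0.24, adjusted p = 0.00304). Each of these held without any 1 mouse, and the list had 5 or 6 calls in those fits. *Dgat2*, which adds the last acyl chain of triglyceride, rose by 1.63 ± 0.35 (adjusted p = 0.00582). Without ND mice 1 and 2 the list had 1 call.

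Cholesterol synthesis was the list of lipid synthesis with the largest share of calls: 15 of 25 genes rose and none fell (median 1.09). *Insig1*, a sterol sensor of the endoplasmic reticulum that is itself a target of SREBP, rose from 68.1, 53.0 and 63.9 to 392, 242 and 351 (2.37 ± 0.24, adjusted p = 5.34e-05). *Lss*, lanosterol synthase, rose from 14.2, 18.3 and 17.0 to 60.2, 43.0 and 48.9 (1.56 ± 0.19, adjusted p = 0.000132). *Nsdhl*, a sterol dehydrogenase, rose from 13.7, 14.2 and 14.3 to 59.3, 32.9 and 44.5 (1.59 ± 0.22, adjusted p = 0.000334). The ND mice of all 3 genes lay close together and the 60% HFD mice were clearly apart from them. *Dhcr7*, which makes cholesterol from 7-dehydrocholesterol and whose promoter is shown, rose from 7.94, 5.4 and 7.66 to 31.2, 24.2 and 13.9 (1.53 ± 0.23, adjusted p = 0.000714). With the hepatocyte level as a covariate 5 genes rose, with the epididymis level 3 and without ND mice 2 and 3 5, and without 60% HFD mouse 1 7 did, without ND mouse 2 9 and without ND mouse 3 10.

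Promoters of the cholesterol genes were searched for CCAAT, on either strand (ATTGG on the other), the box bound by the factor NF-Y, because NF-Y is known to work with SREBP. The windows ran from 250 bases before to 50 bases after the annotated start (RefSeq, GRCm38.p6), and 17 of the 25 genes had one. The box was present in 16 of the 17 and in 14 of the 14 that rose, beside 42.7% of the 11802 tested genes with a window. This is a description of the letters in these windows, and no occupancy was measured. The stretches below show the box in capitals in 3 genes that rose, each read 5′ to 3′ on the strand of the gene: *Insig1* (chr5:28071162-28071247, plus strand), *Lss* (chr10:76531495-76531594, plus strand) and *Dhcr7* (chr7:143830114-143830213, plus strand), which holds a pair of boxes in opposite orientation.
Insig1: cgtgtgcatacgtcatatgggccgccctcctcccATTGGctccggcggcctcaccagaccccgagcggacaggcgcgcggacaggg
Lss: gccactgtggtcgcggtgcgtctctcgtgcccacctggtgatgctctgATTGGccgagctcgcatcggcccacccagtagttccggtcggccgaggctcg
Dhcr7: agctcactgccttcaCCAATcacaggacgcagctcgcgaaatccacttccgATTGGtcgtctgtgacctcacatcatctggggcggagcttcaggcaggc

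Of 16 genes of lipolysis and the lipid droplet, 6 rose (median 0.68). *Plin2*, a lipid droplet coat protein, rose from 191, 80.5 and 119.8 to 699.9, 789 and 459 (2.36 ± 0.32, adjusted p = 0.000295). *Aqp7*, the glycerol channel of adipocytes, rose from 48.8, 33.3 and 63.8 to 219, 109 and 205 (1.83 ± 0.29, adjusted p = 0.000852). *Mgll*, monoacylglycerol lipase, rose from 424, 327 and 382 to 1394, 867 and 1538 (1.71 ± 0.29, adjusted p = 0.00144). None of the 3 overlapped between the diets. *Bscl2*, the seipin gene of droplet formation, was called (1.01 ± 0.25, adjusted p = 0.0122) but not without ND mouse 2 (0.0626) or 60% HFD mouse 1 (0.0562). The list had 3 calls without either of these mice and 4 without ND mouse 3 or 60% HFD mouse 3.

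Fatty acid oxidation had the largest share of calls among the metabolic lists, with 17 of 21 genes higher and none lower (median 1.40). *Hadhb*, the beta subunit of the mitochondrial trifunctional protein, rose from 178, 105 and 139 to 425, 353 and 406 (1.51 ± 0.17, adjusted p = 8.21e-05). *Decr1*, which reduces dienoyl-CoA from unsaturated fatty acids, rose from 126, 86.0 and 105 to 274, 246 and 317 (1.40 ± 0.17, adjusted p = 0.000132). *Cpt1b*, the muscle-type carnitine palmitoyltransferase that admits fatty acids to mitochondria, rose from 1.64, 0.982 and 1.04 to 8.43, 9.93 and 13.2 (2.37 ± 0.32, adjusted p = 0.000344). The 3 calls held without any 1 mouse and under the hepatocyte, smooth muscle and epididymis covariates. *Acadl*, a long-chain acyl-CoA dehydrogenase, rose by 1.38 ± 0.21 (adjusted p = 0.000574). Between 13 and 18 genes rose when 1 mouse was left out. With the hepatocyte level as a covariate 7 of the 21 rose, with the epididymis level 3 and without ND mice 2 and 3 4.

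Of 30 subunit genes of oxidative phosphorylation 11 rose and 1, *Cox6c*, fell (median 0.33). *Uqcrc1*, a core subunit of complex III, read 135, 101 and 105 against 178, 217 and 193 (0.79 ± 0.19, adjusted p = 0.00983, and 0.0528 without ND mouse 2). Without ND mouse 2 no gene of the list was called. Leaving out ND mouse 3 or 60% HFD mouse 1 left 4 higher, leaving out 60% HFD mouse 2 left 5, the hepatocyte covariate left none higher and 1 lower, and the epididymis covariate left none. Of 11 tested thermogenic genes 3 rose (median 0.86, but -0.18 with the hepatocyte level as a covariate, where 2 rose): *Kcnk3*, a potassium channel of brown adipocytes, from 8.52, 5.28 and 9.68 to 38.1, 25.8 and 39.5 (2.02 ± 0.39, adjusted p = 0.00336), *Fgf21* and *Cox8b*. *Fgf21*, a metabolic hormone, was low on ND at 0.529, 0 and 0, with no reads in ND mice 2 and 3, and read 2.99, 1.33 and 2.46 on the 60% HFD (adjusted p = 0.0148, 0.0656 without ND mouse 2 and 0.0687 without 60% HFD mouse 1). *Cox8b*, a muscle and brown fat subunit of complex IV, read 2.65, 0.798 and 1.96 against 3.38, 4.11 and 12.5 (adjusted p = 0.0281, 0.133 without ND mouse 2, 0.0548 without ND mouse 3 and 0.0967 without 60% HFD mouse 3). The list had 6 calls without ND mouse 1, 1 without ND mouse 2 and 2 without ND mouse 3 or 60% HFD mouse 1. *Ucp1* was below the expression filter and was not tested.

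Of 13 adipocyte transcription factor genes 4 rose (median 0.49), *Zfp423*, *Nr1h3*, *Rxrg* and *Cebpa*. *Zfp423*, a zinc finger factor of preadipocyte commitment, read 26.9, 26.8 and 33.9 against 56.6, 44.8 and 76.8 (0.97 ± 0.28, adjusted p = 0.0238). *Nr1h3*, the sterol receptor LXR alpha, read 57.1, 32.4 and 51.3 against 67.8, 77.2 and 80.5 (0.70 ± 0.22, adjusted p = 0.0351). Neither gene overlapped between the diets, but the differences were small, and no gene of the list was called without ND mouse 2 or without 60% HFD mouse 1, 1 was without ND mouse 3, and 2 were without 60% HFD mouse 2 or 3. *Zfp423* had an adjusted p of 0.088 without ND mouse 2, 0.0676 without 60% HFD mouse 1 and 0.0788 without 60% HFD mouse 3, and *Nr1h3* was called only in the fit without ND mouse 1, with 0.171 without ND mouse 2 and 0.0514 to 0.0803 in the other 4.

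Genes of lipid-associated macrophages, the cells that surround dying adipocytes in obesity, rose in 13 of 19 cases and fell in none (median 1.74). *Fabp5*, a fatty acid binding protein, rose from 20.3, 21.4 and 28.3 to 185, 162 and 197 (2.91 ± 0.20, adjusted p = 3.12e-06). *Lipa*, lysosomal acid lipase, rose from 82.4, 47.2 and 54.5 to 239.7, 282 and 121 (1.74 ± 0.33, adjusted p = 0.0031). *Plin2* and *Cd36*, given above, belong to this list too and are expressed by adipocytes as well, and the list shares *Lipa*, *Ctsk* and *Atp6v0d2* with the lysosome list. *Itgax*, which encodes the macrophage and dendritic cell integrin CD11c and was chosen after its values were seen, rose from 5.35, 5.46 and 4.41 to 59.4, 72.0 and 22.0 (2.95 ± 0.62, adjusted p = 0.00549). *Gpnmb*, a glycoprotein of lipid-laden macrophages also chosen afterwards, read 29.3, 33.2 and 33.2 against 259, 483 and 59.3 (2.58 ± 0.88, adjusted p = 0.0482). Its call was lost without ND mouse 1 (0.0784), ND mouse 2 (0.119), ND mouse 3 (0.101), 60% HFD mouse 1 (0.143) or 60% HFD mouse 2 (0.167). Without ND mouse 2 or without 60% HFD mouse 1 8 genes of the list rose, and without ND mice 1 and 2 3 did.

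*Spp1*, which encodes the secreted phosphoprotein osteopontin, read 1.96, 2.82 and 2.63 in ND mice and 9.81, 35.2 and 3.95 in 60% HFD mice. The groups did not overlap, but mouse 2 on the 60% HFD was several times above the other 2 and the difference missed the threshold (log2 fold change 1.85 ± 0.93, adjusted p = 0.151, exact two-sided permutation p = 0.1, n = 3 per group). In ligatured WT mice *Spp1* read 0.69, 0.709 and 0.31 on ND and 3.11, 14.5 and 46.7 on the 60% HFD (log2 fold change 3.22, adjusted p = 0.0486), and the effect did not differ detectably between genotypes (difference -1.36, adjusted p = 0.808). *Trem2*, the lipid receptor of these macrophages, chosen afterwards, overlapped between the diets with 17.0, 16.7 and 9.99 against 37.7, 89.9 and 13.0 (adjusted p = 0.149). In *Spp1*, *Gpnmb*, *Trem2* and *Itgax* alike, 60% HFD mouse 3 was the lowest of its group and mouse 2 the highest.

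Of 18 general macrophage markers 3 rose, a share near the 12.8% of all tested genes, and 1 fell (median 0.24, but -0.26 without ND mice 2 and 3). *Cd68*, a lysosomal glycoprotein of macrophages, read 42.0, 20.8 and 18.9 against 89.2, 125 and 45.7 (1.61 ± 0.39, adjusted p = 0.0107, and 0.0544 without ND mouse 2). *Adgre1*, the F4/80 antigen, read 98.1, 37.1 and 44.7 against 132, 172 and 90.2 and the groups overlapped through ND mouse 1 (adjusted p = 0.0163, 0.0896 without ND mouse 2, 0.0609 without ND mouse 3, 0.0583 without 60% HFD mouse 1 and 0.0614 without 60% HFD mouse 2). The one marker that fell was *Timd4*, of resident macrophages, with 6.56, 5.28 and 7.29 against 2.7, 2.61 and 2.31 (-1.05 ± 0.34, adjusted p = 0.0398), and it lost its call in each of the 6 fits that left out 1 mouse, where the highest adjusted p was 0.114, without ND mouse 3. The count of higher markers was 6 without ND mouse 1, 0 without ND mouse 2 and 1 without ND mouse 3, 60% HFD mouse 1 or 60% HFD mouse 2.

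Of 23 chemokine and cytokine genes 18 were expressed enough to test, and 2 rose and 1 fell (median 0.48). Of all tested genes 12.8% rose and 9.49% fell, so the list did not exceed those shares. *Il18*, a cytokine of the interleukin-1 family, fell from 12.2, 12.1 and 9.44 to 4.36, 6.88 and 5.07 (-0.94 ± 0.21, adjusted p = 0.00701). *Tgfb1*, transforming growth factor beta, rose from 24.4, 20.8 and 18.0 to 38.8, 38.9 and 31.5 (0.77 ± 0.18, adjusted p = 0.0101). In neither did the diets overlap, and neither call depended on 1 mouse. *Il1rn*, the interleukin-1 receptor antagonist, read 1.06, 0.553 and 0.429 against 13.6, 21.0 and 2.68 (2.67 ± 0.74, adjusted p = 0.02), and was not called without ND mouse 2 (0.0701), ND mouse 3 (0.058), 60% HFD mouse 1 (0.08) or 60% HFD mouse 2 (0.076). *Tnf* read 0.212, 0.614 and 0.368 against 1.08, 1.5 and 0.373 (adjusted p = 0.227) and *Ccl2*, a monocyte attractant, read 3.76, 1.41 and 1.78 against 7.21, 7.27 and 3.5 (adjusted p = 0.122), with overlap in both. *Il1b* and *Il6* were below the filter. The list had 4 higher and 2 lower calls without ND mouse 1 and 1 higher without ND mouse 2, ND mouse 3 or 60% HFD mouse 1. Of the 5 genes of the CCL19 axis none was called (median -0.76).

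Of the 24 genes of the lysosome list 19 rose and none fell (median 1.07). *Ctsd*, the aspartic protease cathepsin D, rose from 747, 415 and 511 to 1933, 1937 and 1886 (1.82 ± 0.17, adjusted p = 2.93e-05). *Ctsl*, the cysteine protease cathepsin L, rose from 279, 234 and 245 to 639, 685 and 675 (1.40 ± 0.16, adjusted p = 7.84e-05). *Gusb*, beta-glucuronidase, rose from 53.2, 35.5 and 38.4 to 106, 123 and 89.0 (1.31 ± 0.17, adjusted p = 0.000282). The 3 60% HFD mice lay close together and every one of them above the highest ND mouse. *Ctsz*, another cathepsin, rose by 1.22 ± 0.17 (adjusted p = 0.000375). *Atp6v1a*, the catalytic subunit of the proton pump that acidifies lysosomes, was chosen afterwards for its promoter and rose from 99.9, 79.6 and 92.2 to 191, 233 and 166 (1.10 ± 0.15, adjusted p = 0.000382). All 5 calls held without any 1 mouse and under the 3 marker covariates. Between 14 and 21 genes of the list rose when 1 mouse was left out, 17 without ND mice 1 and 2, 12 with the hepatocyte level as a covariate, 13 with the epididymis level and 8 without ND mice 2 and 3.

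Lysosomal genes are known to carry the CLEAR element, the site of the factors TFEB and TFE3, with the palindromic core TCACGTGA. The core was searched in the same windows, and 18 of the 24 genes had one. It was present in 6 of the 18, and in 4 of the 15 that rose, beside 1.92% of the 11802 tested genes with a window. Of the 4, *Ctsd*, *Atp6v1a* and *Ctsa* held it before the start and *Atp6v0d1* after it. The 3 stretches below show the core in capitals, 5′ to 3′ on the strand of the gene, for *Ctsd* (chr7:142387873-142387972, minus strand, 91 bases before the start), *Atp6v1a* (chr16:44139338-44139437, minus strand, 124 bases before it) and *Ctsa* (chr2:164833673-164833772, plus strand, 5 bases before it). Binding of a factor was not measured.
Ctsd: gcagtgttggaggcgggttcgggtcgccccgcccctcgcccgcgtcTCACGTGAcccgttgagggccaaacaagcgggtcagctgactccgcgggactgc
Atp6v1a: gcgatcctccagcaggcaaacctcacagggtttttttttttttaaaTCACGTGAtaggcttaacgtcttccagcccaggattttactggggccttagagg
Ctsa: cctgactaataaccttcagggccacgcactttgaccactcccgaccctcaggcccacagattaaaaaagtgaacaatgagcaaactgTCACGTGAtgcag

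**Figure D3:**
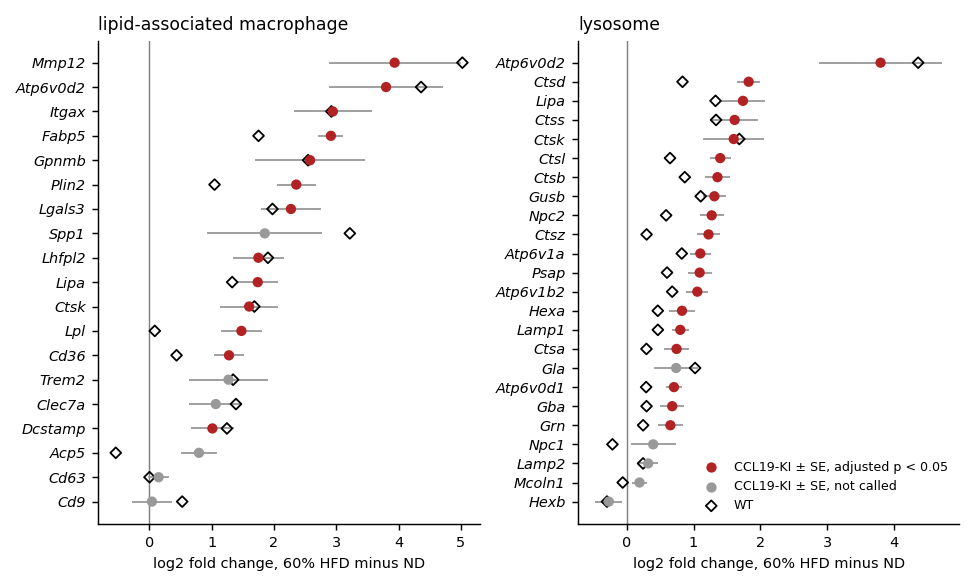
Log2 fold change (60% HFD minus ND) of each member of the lipid-associated macrophage list (left) and the lysosome list (right) in ligatured CCL19-KI mice, as points with ± 1 SE, red where the adjusted p was under 0.05, beside the WT estimate as an open diamond. *Mmp12*, *Gpnmb* and *Spp1* have long error bars, and *Ctsd*, *Ctsl* and *Gusb* have short ones well above 0.

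Genes of the extracellular matrix rose as well. Of 18 collagen genes 10 rose and 1, *Col6a5*, fell (median 0.91). *Col4a2* and *Col4a1*, the chains of basement membrane collagen IV, rose from 172, 235 and 251 to 913, 679 and 1415 (2.14 ± 0.32, adjusted p = 0.000553) and from 415, 418 and 469.8 to 1194, 973 and 1847 (1.57 ± 0.25, adjusted p = 0.000934). *Col12a1*, a fibril-associated collagen, rose from 19.0, 40.4 and 26.7 to 86.7, 59.2 and 109.5 (1.56 ± 0.31, adjusted p = 0.00365). These 3 calls held without any 1 mouse and under each covariate. Of 20 genes of matrix remodelling 8 rose and 1, *Mmp9*, fell (median 0.83). *Tnc*, the matrix glycoprotein tenascin C, rose from 4.34, 1.84 and 1.59 to 19.2, 12.0 and 10.6 (2.09 ± 0.33, adjusted p = 0.000941). *Sparc*, a collagen chaperone, rose from 1599, 1651 and 1920.2 to 5112, 4042 and 6550.3 (1.58 ± 0.33, adjusted p = 0.0048). *Postn*, the matrix protein periostin, rose by 1.56 ± 0.34 (adjusted p = 0.00603), and in all 3 of these genes the diets were apart. *Mmp12*, the macrophage elastase, read 3.49, 4.97 and 7.29 against 158, 270.0 and 17.6 (3.94 ± 1.06, adjusted p = 0.0181), and 0.0622 without ND mouse 2, 0.0766 without 60% HFD mouse 1 and 0.0692 without 60% HFD mouse 2. Collagen calls fell to 6 without ND mouse 2 or 60% HFD mouse 1 and to 5 without 60% HFD mouse 3, and remodelling calls to 3 without ND mouse 2, 4 without 60% HFD mouse 1 and 5 without ND mouse 3 or 60% HFD mouse 2.

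Of 12 acute phase genes 6 rose (median 1.93). *Orm1*, which encodes an orosomucoid that adipocytes also secrete, rose from 51.5, 32.4 and 37.3 to 229, 186 and 206 (2.35 ± 0.20, adjusted p = 1.79e-05), and this held under every covariate. *Serpina3n*, a protease inhibitor, rose from 222, 134 and 155 to 532, 342 and 567 (1.49 ± 0.27, adjusted p = 0.0023). With the hepatocyte level as a covariate 2 genes of the list rose, with the epididymis level 1 and without ND mice 2 and 3 1. *Orm2*, a second orosomucoid, was low on ND at 1.22, 0.307 and 0.429 and read 8.58, 8.43 and 1.79 on the 60% HFD (1.98 ± 0.39, adjusted p = 0.00363), with mouse 3 again the lowest of its group. The list had 9 calls without ND mouse 1 and 3 without ND mouse 2 or 60% HFD mouse 1. Of 16 complement genes 3 rose and 2 fell (median 0.004), beside 12.8% and 9.49% of all tested genes. *C2*, a protease of the classical pathway, fell from 257, 356 and 306 to 76.0, 161 and 146 (-1.31 ± 0.27, adjusted p = 0.00496), as did *Cfd*. *C4b*, the fourth component, rose by 0.78 ± 0.19 (adjusted p = 0.0103, 0.0638 without ND mouse 2 and 0.0509 without 60% HFD mouse 1). No complement gene was called higher without ND mouse 2 or without 60% HFD mouse 1, 5 were without ND mouse 1, 1 was without ND mouse 3, and 1 was higher with 4 lower without 60% HFD mouse 2.

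The largest falls were in genes of tissues other than fat, and in most of them 60% HFD mice were near 0. *Akr1b7*, an aldo-keto reductase, read 7337, 4088 and 5.94 against 2.5, 0.444 and 0.447 (-8.25 ± 2.46, adjusted p = 0.0281), and ND mice 1 and 2, which carried the epididymal transcripts, were the high ones. Without ND mouse 1 the adjusted p was 0.0813, without ND mouse 2 0.124, and without 60% HFD mouse 1, 2 or 3 0.0682, 0.0659 and 0.0594. *Crisp1*, given above, had a log2 fold change of -7.64 ± 2.00 (adjusted p = 0.016, 0.0761 without ND mouse 2). Its epididymal neighbours in the list of falls were *Spink8*, *Serpina1f* and *Defb42*. *Spink8* read 410.5, 193 and 1.29 against 0, 0.0555 and 0 (adjusted p = 0.0197, 0.0601 without ND mouse 1, 0.0935 without ND mouse 2 and 0.0622 without 60% HFD mouse 1). *Serpina1f* read 537, 271 and 0.98 against 0.294, 0.444 and 0 (adjusted p = 0.0309) and *Defb42* read 119, 49.4 and 0.306 against 0.049, 0.0555 and 0 (adjusted p = 0.025). Both lost their calls without any 1 mouse other than ND mouse 3, with adjusted p up to 0.132 and 0.112, each without ND mouse 2. Of the 17 epididymis markers 3 passed the filter on low values, and 2 of these, *Crisp1* and *Serpina1f*, were called lower (median -5.75). *Serpina1f* and *Defb42* did not pass the filter without ND mice 1 and 2. The direction of these falls and the median therefore follow in part from the filter.

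Of 12 smooth muscle markers 10 fell and 1 rose (median -2.68), and *Pcp4* and *Tpm2*, also of muscle, were among the 10 largest falls. *Tpm2*, a tropomyosin of muscle, read 534, 392 and 24.0 against 8.88, 17.3 and 11.8 (-3.72 ± 0.84, adjusted p = 0.00789). *Smtn*, the actin-binding protein smoothelin, read 117, 94.1 and 30.9 against 14.7, 24.5 and 23.6 (-1.73 ± 0.39, adjusted p = 0.00764). *Pcp4*, a calmodulin regulator, read 225, 206 and 3.43 against 0.294, 0 and 0 (-5.76 ± 1.21, adjusted p = 0.00521), and it did not pass the filter without ND mice 1 and 2. In these genes ND mice 1 and 2 stood above ND mouse 3 by several fold or more, and without those 2 mice no smooth muscle marker was lower. The list had 2 lower calls without ND mouse 2, 3 without 60% HFD mouse 1, 5 without ND mouse 1 and 6 without 60% HFD mouse 2. The one that rose, *Synpo2*, an actin-bundling protein, went from 330.2, 316 and 259 to 1113, 727 and 1111 (1.68 ± 0.32, adjusted p = 0.0029). It did so without any 1 mouse.

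Several neuronal genes that fell were high in all 3 ND mice. *Rims1*, a scaffold of the presynaptic active zone, read 22.7, 14.5 and 17.6 against 0.785, 0 and 0.0745 (-3.93 ± 0.28, adjusted p = 3.12e-06). *Dpp6*, an accessory subunit of neuronal potassium channels, read 33.5, 24.1 and 14.8 against 0.392, 0 and 0.149 (-4.35 ± 0.48, adjusted p = 7.36e-05). *Rbfox3*, which encodes the neuronal nuclear antigen NeuN, read 27.5, 15.7 and 9.25 against 0.294, 0.333 and 0.447 (-3.64 ± 0.35, adjusted p = 2.93e-05). All 3 ND mice were high in these genes, ND mouse 3 included, and the calls held without any 1 mouse and under the 3 covariates. None of the 3 genes passed the filter on low values without ND mice 1 and 2. Being high on ND was thus close to a condition of being tested. *Kif5c*, a neuronal kinesin, read 102, 95.8 and 32.6 against 2.84, 1.28 and 2.09 (-4.54 ± 0.62, adjusted p = 0.000347, and 0.0606 with the epididymis level as a covariate). In unligatured knock-in mice *Kif5c* read 2.31, 24.8 and 2.06 on ND and 16.7, 2.74 and 413 on the 60% HFD. *Dpp6* read 0, 8.10 and 0.059 against 6.14, 0.288 and 158 there, and *Crisp1* 1.18, 436 and 1.00 against 275, 199.9 and 9541. Whether these genes came with the epididymal transcripts was not tested. *Ank1*, an ankyrin, chosen afterwards because it differed between genotypes, read 42.1, 35.6 and 25.3 against 1.77, 2.94 and 2.68 (-3.34 ± 0.32, adjusted p = 2.93e-05). *Stmn2*, a tubulin regulator of growing neurites, fell from 13.0, 16.4 and 21.9 to 2.06, 7.99 and 1.49 (-2.11 ± 0.44, adjusted p = 0.00521, and 0.0825 with the epididymis level as a covariate). Of 9 tested neuronal markers 4 fell and none rose (median -1.53), and 8 fell without ND mouse 1 and 2 without ND mouse 2 or without ND mouse 3. *Rbfox3* is 1 of the 9, so this median depends in part on the filter.

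Of 12 mesothelial markers, genes of the cell layer that covers the fat pad, 6 fell (median -1.61). *Krt19*, a keratin, read 146, 169 and 72.5 against 8.29, 53.0 and 28.7 (-2.31 ± 0.58, adjusted p = 0.0129). *Wt1*, a transcription factor of the mesothelium, read 59.7, 77.4 and 51.0 against 9.66, 34.4 and 23.8 (-1.58 ± 0.40, adjusted p = 0.0144). The groups were apart in both genes, but neither was called without ND mouse 2 (0.0637 and 0.0689) or without 60% HFD mouse 1 (0.0644 and 0.0718), and without either mouse no mesothelial marker was. Leaving out ND mouse 3 or 60% HFD mouse 3 left 3, and leaving out 60% HFD mouse 2 left 9. Of 13 skeletal muscle markers 4 fell (median -1.49), among them *Actn3*, the fast-fibre actinin, with 27.7, 23.8 and 20.5 against 1.23, 2.72 and 4.1 (-2.83 ± 0.48, adjusted p = 0.00131), and 8 fell without ND mouse 2. Of the 18 hepatocyte markers 13 rose (median 5.38). *Apoa1*, an apolipoprotein, was the one with the lowest p, with 217, 0.0614 and 0.0613 against 1039, 758 and 104 (adjusted p = 0.0313), and the groups overlapped through ND mouse 1. No hepatocyte marker was called without ND mouse 2, without ND mouse 3, without 60% HFD mouse 1 or without 60% HFD mouse 2, and *Apoa1* then had adjusted p of 0.14, 0.122, 0.112 and 0.0806.

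The other lists, here and in the next paragraph, stand beside 12.8% higher and 9.49% lower among all tested genes. Of 15 genes of the unfolded protein response 4 rose, among them *Hspa5*, the chaperone BiP, from 340.0, 263 and 221 to 616, 578 and 466 (1.02 ± 0.19, adjusted p = 0.00221), but 1 rose without ND mouse 2, ND mouse 3 or 60% HFD mouse 1 and 2 without 60% HFD mouse 2. Of 12 tested vitamin A genes 2 rose and 1 fell. *Dhrs3*, a retinal reductase, rose from 106, 75.8 and 92.7 to 225, 186 and 195 (1.14 ± 0.16, adjusted p = 0.000469), while *Stra6*, the cell surface receptor for retinol-binding protein, fell from 3.49, 2.09 and 1.53 to 0.049, 0.166 and 0.0745 (-1.58 ± 0.27, adjusted p = 0.00131). The 2 genes thus moved apart within 1 pathway, each in all 3 mice, but *Stra6* did not pass the filter on low values without ND mice 1 and 2. Among 7 MHC class II genes *H2-DMb1*, a peptide exchange factor, rose from 26.6, 17.8 and 15.4 to 64.1, 60.1 and 45.4 (1.48 ± 0.27, adjusted p = 0.00214), and 4 rose without ND mouse 1. Of 12 endothelial markers 2 rose, including *Cdh5*, the endothelial cadherin, from 18.4, 7.74 and 14.6 to 51.9, 27.2 and 53.0 (1.64 ± 0.30, adjusted p = 0.00224). *Ighm*, the immunoglobulin M heavy chain, was the 1 of 11 tested B cell markers that rose, from 98.8, 105 and 60.2 to 448, 367 and 557 (2.39 ± 0.43, adjusted p = 0.00224). *Ephx2*, soluble epoxide hydrolase, rose from 302, 91.4 and 146 to 701, 541 and 682 (1.99 ± 0.37, adjusted p = 0.00276) as 1 of 3 of the 17 detoxification genes that did, while 1 fell. Without 1 mouse these small counts shifted, for example to 4 endothelial rises without ND mouse 1 and 3 without 60% HFD mouse 2, to 3 vitamin A falls without 60% HFD mouse 2, and to 1 vitamin A rise without ND mouse 2, ND mouse 3, 60% HFD mouse 1 or 60% HFD mouse 2.

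In the remaining lists, 2 of 16 proliferation genes rose and none fell, 1 of 17 clock genes rose and 1 fell, and 1 of 13 interferon-stimulated genes fell. Among the 15 adipocyte markers *Lep* rose and *Cfd* fell. Of the progenitor and fibroblast markers 2 of 15 rose and 1 fell, of the T and NK cell markers 1 of 11 rose, of the kidney markers 1 of 10 fell and of the exocrine pancreas markers 1 of 2 rose. No dendritic cell, germ cell or erythroid marker was called, of 10, 9 and 6 tested. Proliferation had 4 rises without 60% HFD mouse 3, and 3 clock genes and 3 progenitor genes fell without 60% HFD mouse 2. By the interferon gene *Oasl2*, 56.2, 59.8 and 49.5 against 12.7, 36.6 and 19.5 (adjusted p = 0.0239), and the clock gene *Per3*, 52.2, 74.8 and 97.8 against 30.1, 35.4 and 39.9 (adjusted p = 0.0238), the 60% HFD mice were lower in all 3 animals. Neither call held without ND mouse 2 (0.0845 and 0.0792) or 60% HFD mouse 1 (0.118 and 0.0927), and *Oasl2* also lost it without 60% HFD mouse 3 (0.0544) and *Per3* without ND mouse 3 (0.0986).

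With the epididymis level as a covariate, 372 of all 16653 tested genes rose. Beside that, the rises numbered 3 of 10 in fat expansion, 3 of 16 in lipogenesis and 1 of 16 in fatty acid uptake and triglyceride synthesis. They numbered 2 of 16 in lipolysis, 3 of 19 in lipid-associated macrophages, 3 of 18 in collagens and 3 of 20 in matrix remodelling. Without ND mice 2 and 3 the medians were 1.21, 0.63, 0.48, 0.50, 1.47, 1.03 and 0.36 in the same order. The medians of these lists were above 0 in both fits, but that of matrix remodelling went from 0.83 in the main fit to 0.36 without ND mice 2 and 3. That fit leaves 1 ND mouse, so no calls are counted here and a median above 0 does not show that calls held.

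**Figure D4:**
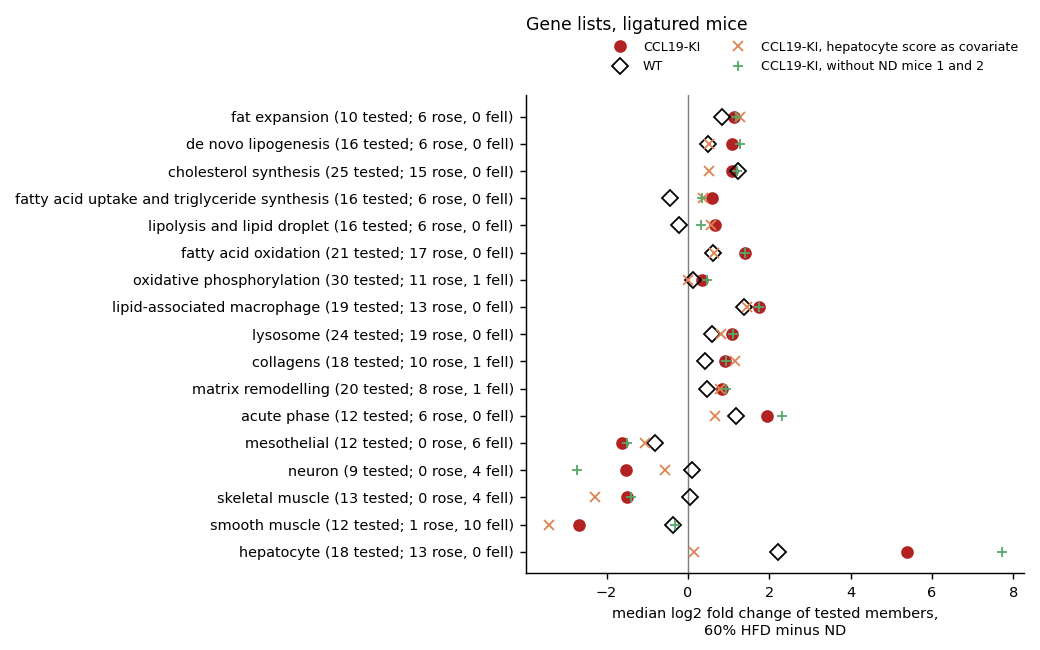
Median log2 fold change (60% HFD minus ND) of the tested members of each gene list in ligatured CCL19-KI mice, beside ligatured WT mice (diamonds), the fit with the hepatocyte covariate (crosses) and the fit without ND mice 1 and 2 (plus signs). The smooth muscle median goes from -2.68 to -0.33 without ND mice 1 and 2, and the lysosome and collagen medians lie above 0 in the fits shown. The cross of the hepatocyte list is adjusted for the list's own mean level and is near 0 by construction.

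In ligatured WT mice, which share no animal with the comparison, the same diet was followed by 645 higher (3.87%) and 569 lower genes (3.42%). Of these 1214 genes 768 were called in the knock-in too, all with the same sign. That is 63.3% of the WT calls, beside 22.3% of all tested genes called in the knock-in. It is 20.7% of the knock-in calls, beside 7.29% of all tested genes called in WT mice. Both effects were tested in 1 fit with a shared spread, so the overlap of calls is not independent. Of the 2131 genes that rose in the knock-in, 1983 had a WT estimate above 0, beside 50.4% of all tested genes. Of the 1580 that fell, 1352 had one below 0, beside 49.6%. Rises of *Slc5a7* and *Tph2* were also seen in WT mice: *Slc5a7* read 0.138, 0.253 and 0.0774 on ND and 46.7, 70.3 and 65.3 on the 60% HFD (log2 fold change 5.72, adjusted p = 0.000224), and *Tph2* read 0.138, 0 and 0.851 against 16.1, 71.9 and 58.5 (5.04, adjusted p = 0.000595). *Lep* (2.01, adjusted p = 0.0207), *Sfrp5* (4.60, adjusted p = 0.000224), *Cfd* (-4.01, adjusted p = 0.00325), *Insig1* (1.93, adjusted p = 0.000818) and *Fabp5* (1.75, adjusted p = 0.000595) changed in the same direction. The cholesterol list had 13 of 25 higher in WT mice (median 1.23), the lipid-associated macrophage list 10 of 19 (1.39) and the lysosome list 11 of 24 (0.60). Fatty acid oxidation had 2 higher and 1 lower of 21 in WT mice (0.63), collagens 1 of 18 (0.43) and oxidative phosphorylation 1 of 30 (0.12). In these lists the knock-in effect was not called different from the WT effect except in 1 gene, *Pmvk* of cholesterol synthesis. Leaving out WT ND mouse 1 lowered the WT calls from 1214 to 137, the largest drop, and leaving out any other WT mouse but ND mouse 3 left 321 to 534.

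The difference between the genotypes was itself tested, and 39 genes (0.234%) were called, 4 with a larger effect in the knock-in and 35 with a smaller or more negative one. *Pmvk*, phosphomevalonate kinase, read 9.37, 8.96 and 11.4 against 23.0, 18.8 and 25.2 in the knock-in and 22.7, 24.8 and 18.2 against 19.8, 14.3 and 18.4 in WT mice (difference 1.40, adjusted p = 0.0313). It rose in the knock-in and overlapped between diets in WT mice, whose ND level was about that of the knock-in on the 60% HFD. The other 3 on the higher side were *Wipi1*, *Lmna* and *Maoa*, with differences of 0.93, 0.75 and 1.01, named because they completed the count. On the lower side *Rims1* differed by -3.97 (adjusted p = 0.000859), *Rbfox3* by -3.61 (adjusted p = 0.00592) and *Dpp6* by -4.50 (adjusted p = 0.0118). These neuronal genes were near 0 in all 6 WT mice, so that their difference was set by the 3 ND mice of the knock-in. Without knock-in ND mice 1 and 2 these genes did not pass the filter on low values. *Ank1* differed by -2.83 (adjusted p = 0.0144), with 3.24, 2.13 and 4.95 against 2.33, 1.36 and 2.46 in WT mice. The count was 7 without knock-in ND mouse 2, 23 without knock-in 60% HFD mouse 3, 61 without knock-in ND mouse 1 and 215 without knock-in ND mouse 3, and it was 22 or 16 without WT ND mouse 1 or 2 and 24 or 20 without WT 60% HFD mouse 2 or 3. The 4 on the higher side were 0 to 1 in most of these fits, 15 without knock-in ND mouse 3 and 23 without WT ND mouse 3. With edgeR on recovered reads 1 gene, *Faxc*, was called.

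**Figure D5:**
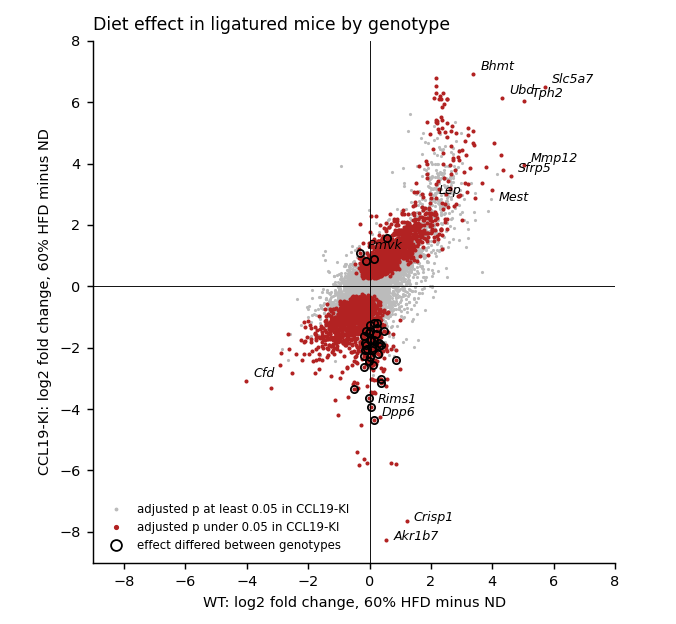
Log2 fold change (60% HFD minus ND) of each tested gene in ligatured WT mice (horizontal) and in ligatured CCL19-KI mice (vertical), red where called in the knock-in and ringed where the effect differed between genotypes. *Slc5a7*, *Tph2*, *Mest* and *Cfd* moved the same way in both, and most ringed genes, *Rims1* and *Dpp6* among them, lie at about 0 in WT mice and below 0 in the knock-in.

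In CCL19-KI mice without a ligature, 21 of 16923 genes were called between the same diets (0.124%). The knock-in signal of 1 of these mice went against its label: 60% HFD replicate 3 had *Gm2564* at 0 and *Ccl19* at 0.687. Without it 9 genes were called. Unligatured ND mouse 1 read like 60% HFD mice in *Lep* and *Tph2*. *Lep* read 2199, 128 and 200 in the unligatured ND mice and 1618, 1779 and 1646 in the unligatured 60% HFD mice. *Tph2* read 77.8, 0.108 and 0.118 against 87.9, 104 and 2.36. Why ND mouse 1 did so was not tested. No gene was called without unligatured ND mouse 2 or 3, while 2252 were without unligatured ND mouse 1, 167 without unligatured 60% HFD mouse 1 and 647 without 60% HFD mouse 2. *Lep* had a log2 fold change of 2.13 in the unligatured mice (adjusted p = 0.159), *Slc5a7* of 4.02 (adjusted p = 0.117), *Ctsd* of 1.06 (adjusted p = 0.181) and *Insig1* of 1.00 (adjusted p = 0.285). The difference between ligatured and unligatured knock-in mice was called in 2502 of 17852 genes (14.0%). The count was 2484 without unligatured 60% HFD mouse 3 and 3388 without unligatured ND mouse 1. It was 685 without unligatured ND mouse 3, 1361 without unligatured ND mouse 2, 751 without ligatured ND mouse 2, 817 without ligatured 60% HFD mouse 1 and 1539 without ligatured 60% HFD mouse 2. *Alb* and *Crisp1* were among the genes called in it (adjusted p = 0.0135 and 0.0168). *Alb* read 397, 11700.2 and 13696 in unligatured ND mice and 444, 889.6 and 6.38 in unligatured 60% HFD mice, a direction opposite to that of the ligatured groups. *Crisp1* read 1.18, 436 and 1.00 in the unligatured ND mice and 275, 199.9 and 9541 in the unligatured 60% HFD mice. The ligature, the transcripts of these other tissues and the levels of unligatured ND mouse 1 cannot be told apart in that difference.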

How the data were processed

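RNA sequencing of eWAT was analysed from the normalized count table of the series, in which the authors deposited, as a non-negative expression signal per gene, edgeR-normalized CPM for 36 mice. Lymph nodes had been removed, libraries were directional and depleted of rRNA, and reads were trimmed with Trimmomatic 0.38 and counted with RSEM 1.3.0 on Bowtie2. The processing notes name GRCm39 and the study's methods mm10, and the annotation release was not given in the sources used here. Of 24750 gene IDs, 24634 were named through GENCODE M21. Within a tolerance of 0.01, 100% of values were whole multiples of 1 read, and these recovered reads were used for edgeR 4.0.16 and DESeq2 1.42.0 as alternatives.

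The 18 ligatured mice were fitted with limma 3.58.1 (R 4.3.3, trend) on log2(normalized CPM + 1), keeping genes with at least 1 in 3 libraries. The pseudocount of 1 understates changes of low genes. P-values were adjusted over all genes by the Benjamini-Hochberg method. Replicates of a group differed by more than sampling noise, so each mouse counted once. Mice without ligature were fitted apart, and all 36 mice together for the effect of the ligature. The series' design text speaks of a ligature in all groups, and the sample labels were followed.

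Named were the 10 largest rises and falls among called genes without overlap (chromosome 18 and predicted genes left out) and the members of each gene list with the lowest p. Members and lists were chosen with earlier results of these data known, so lists are described by counts and medians without a test. The result of 1 list is not reported here. Marker levels used as covariates were the mean log2 values of the lists. Interval and floor statements cover counting error only.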

Additional observations from a re-analysis of the deposited data

Results flagged for a closer look

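The effect of the 60% HFD differed between ligatured CCL19-KI and WT mice in 39 genes and between CCL19-KI mice with and without ligature in 2502 genes, by limma tests of the difference itself at an adjusted p under 0.05. The count of 2502 includes unligatured 60% HFD mouse 3 and unligatured ND mouse 1, whose deviating values are given above. Of the genes named in the text, *Dpp6* (difference -4.50 on the log2 scale), *Rims1* (-3.97), *Rbfox3* (-3.61) and *Ank1* (-2.83) had a more negative effect in the knock-in, beside WT estimates of 0.15, 0.03, -0.03 and -0.51, and *Pmvk* (1.40) rose there while its WT estimate was -0.31. Neuronal marker levels were 1.29, 2.48 and 3.14 in the ligatured ND mice of the knock-in and 0.76 to 0.96 in all ligatured WT mice, and their part in these differences was not tested. With edgeR on recovered reads only *Faxc* was called between the genotypes.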

How the results depend on the processing

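The 3711 calls became 3655 with the replicate block and ranged from 2927 to 4800 with another pseudocount, filter, size factor, robust fit, edgeR (3565) or DESeq2 (4800). They were 9671 with sample quality weights, 1801 in a fit of the 6 mice alone, 2284 in a fit of all 36 mice, 1281 without ND mice 1 and 2, 1400 with the hepatocyte covariate and 564 with the epididymis covariate. Chosen after seeing the data, the smooth muscle covariate left 1869 and leaving out ND mice 2 and 3 left 712. Leaving out each mouse gave 1460 to 4461. By the study's criteria the 4194 genes became 2694 with a pseudocount of 5, 2751 with a mean of at least 5, 2768 with the hepatocyte covariate and 2309 without ND mice 2 and 3. The difference between genotypes was 39 genes, 29 with the replicate block, 1 with edgeR, 81 without ND mice 1 and 2 and 7 to 215 when each mouse was left out. The WT count was 1214, 1134 with the block and 137 to 1770 by mouse left out. The count without ligature was 21, 39 with the replicate block and 0 to 2252 by mouse left out. The difference by ligature was 2502, 2422 with the block, 781 without ND mice 1 and 2 and 685 to 3388 by mouse left out. With the epididymis covariate the epididymis median (0.64), *Akr1b7* (1.64), *Crisp1* (0.64), *Spink8* (0.38) and *Serpina1f* (0.96) changed sign, and *Serpina1f* (0.030) also did with the smooth muscle covariate. The epididymis level is a mean over markers that include *Crisp1* and *Serpina1f*, so their estimates under it are fixed in part by construction and say nothing of the diet. The list medians of adipokines (-0.04, epididymis covariate) and thermogenic genes (-0.18, hepatocyte covariate) changed sign too. The cause was not tested for the other results.

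The replicate numbers did not pair the mice: deviations of same-numbered ND and 60% HFD mice correlated at 0.354, -0.192 and 0.396. With 3 mice per group, reads of other tissues in some mice and 13025945 to 21581595 reads per library, changes of genes near the limit of 3 reads were not resolvable.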
